A study of Mus musculus with 8 samples.

Results

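The genes described here are the 41 G1/S and DNA replication genes of a fixed list, taken from a mouse count table of 23358 genes. They were listed by name, with earlier results of these data already known. All 41 were present in the table and all 41 passed the filter on low counts that left 14086 genes for testing. The libraries were made from hematopoietic stem cells, which maintain all blood lineages from the bone marrow, sorted without culture by the absence of lineage markers and of CD48 and the presence of Sca, Kit and CD150. There were 3 wild type libraries, 3 labelled Huwe1 KO with Mx1-Cre and 2 labelled Huwe1 KO with Vav-Cre, and the deleted gene, Huwe1, encodes a ubiquitin ligase of the HECT family. Mx1-Cre is a recombinase driven by an interferon-responsive promoter, so that deletion is inducible, and Vav-Cre is active throughout the blood system from early on. The labels name no Cre and no inducing agent for the wild type libraries, and give no age, sex or time after induction. Whether the libraries of a group came from separate animals is not stated, and the p-values therefore reflect only the variation among these libraries, which may be technical.

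DNA replication is prepared in G1, when the origin recognition complex, CDC6 and CDT1 load the MCM2-7 helicase onto DNA. At the G1/S boundary the CDC7-DBF4 kinase and the cyclin-dependent kinases activate the helicase together with the GINS complex, and primase, the polymerases, the PCNA clamp and its RFC loader then copy the DNA. Most genes of this machinery are transcribed in late G1 and S phase under E2F factors, and in adult marrow the stem cells sorted here are known to be mostly quiescent.

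Library totals ranged from 28689765 to 33202926 counts, and a single member had between 718 and 26502 counts in a library. Levels are given as CPM, counts scaled to a common library size with TMM factors. Huwe1 itself lay at 434, 398 and 433 CPM in the wild type, 444, 399 and 411.5 in the Mx1-Cre and 445 and 490.1 in the Vav-Cre libraries, which gave log2 fold changes of -0.01 ± 0.11 (SE) for Mx1-Cre and 0.15 ± 0.13 for Vav-Cre libraries (edgeR adjusted p = 0.979 and 0.683). The table holds 1 count per gene, which cannot show the loss of some exons, so the knockout labels are used as given. Of 11 stem cell gate and identity genes all were detected in every library. The gate's Kit lay at 982 to 2344 CPM over all libraries. Slamf1, which encodes CD150, lay at 62.8 to 68.4 CPM in the wild type, 49.0 to 58.1 in the Mx1-Cre and 104.6 and 107.7 in the Vav-Cre libraries. Its level differed between the lines (edgeR adjusted p = 0.0347). In the same order, the gate's Ly6a lay at 75.5 to 95.95, 42.4 to 60.7, and 50.6 and 144.2 CPM. Cd48 lay at 14.75 to 16.15, 19.2 to 22.5, and 15.2 and 15.4 CPM.

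The members formed a common pattern across the 8 libraries. Relative to the wild type mean, the median member lay at a log2 ratio of 0.38, 0.31 and 0.48 in Mx1-Cre 1, 2 and 3, at 0.13 in Vav-Cre 1 and at -0.46 in Vav-Cre 2. In the wild type libraries it lay between -0.06 and 0.07, and over all genes tested the median lay between -0.03 and 0.01 in every library. Summed over the 41 genes the level was 7252, 7650 and 7156 CPM for the wild type, 9797, 9524 and 9721 for the Mx1-Cre and 8078 and 5439 for the Vav-Cre libraries. The Mx1-Cre libraries were thus all above wild type, and the Vav-Cre libraries lay on either side of it. In such bulk samples, fewer cells in cycle and less RNA per cell cannot be told apart.

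**Figure D1:**
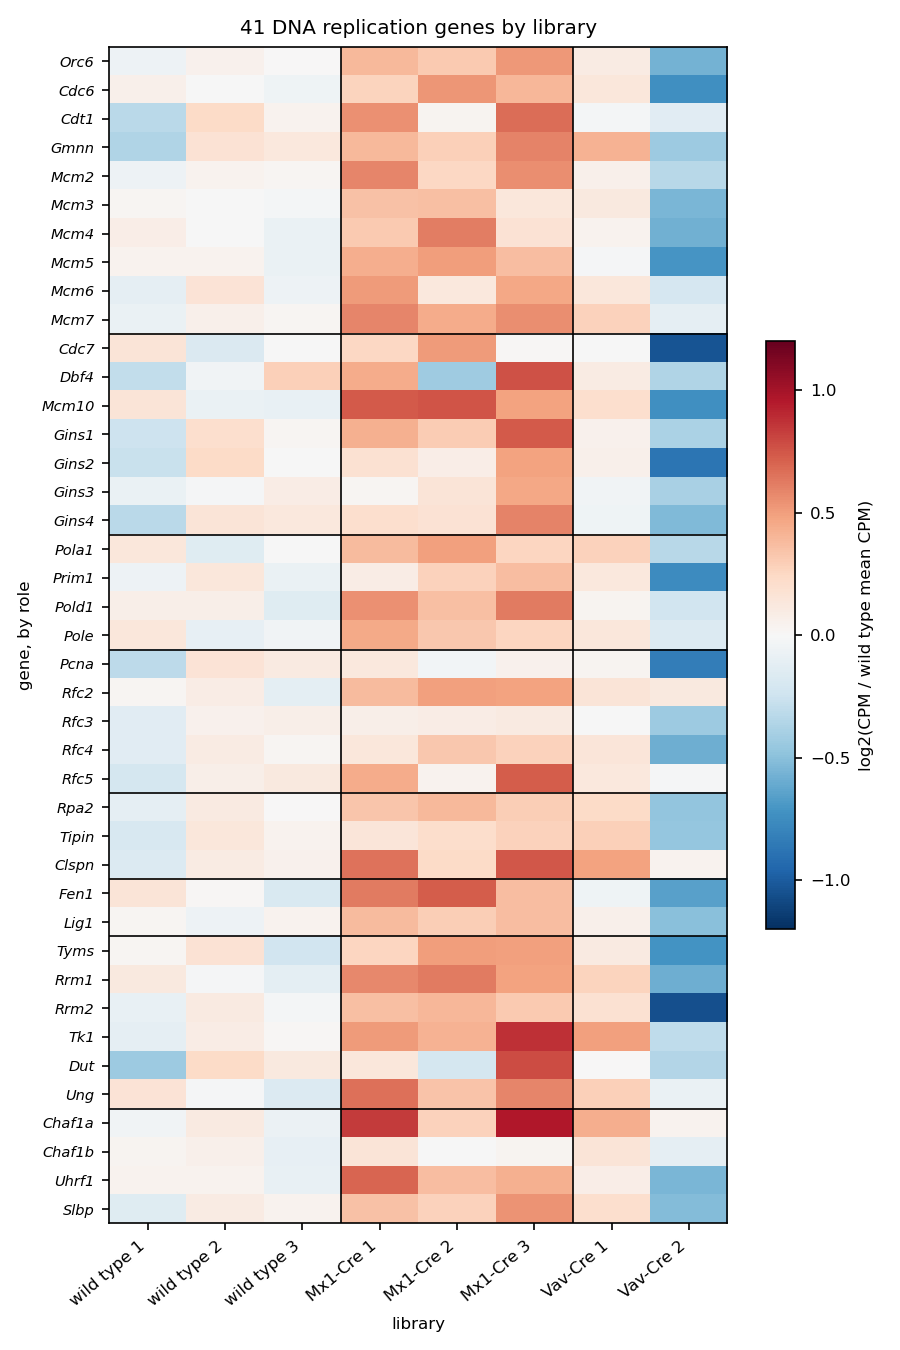
Each cell gives the log2 ratio of a gene's CPM in 1 library (columns) to its mean CPM in the 3 wild type libraries, for the 41 genes (rows) ordered by role, with black lines between roles and between groups. Red fills most of the 3 Mx1-Cre columns, whose medians are 0.38, 0.31 and 0.48, and blue most of the Vav-Cre 2 column, whose median is -0.46.

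The first comparison asks how stem cells with inducible deletion of Huwe1 differ from wild type. All 41 members had a positive fold change in Mx1-Cre libraries under TMM scaling and under DESeq2 size factors, and 39 of 41 did with library totals as the only scaling, where Pcna and Chaf1b turned negative. A positive fold was found for 51.3% of all genes tested. The members' median log2 fold change was 0.39, with a range of 0.05 to 0.72, against a median of 0.01 over all genes tested. For 29 of the 41 genes every Mx1-Cre library lay above every wild type library, as for 10.9% of all genes tested. None of the 41 passed edgeR's quasi-likelihood test (adjusted p 0.0666 to 0.941), which called 0.390% of all genes higher. At an unadjusted p under 0.05, 21 of the 41 were higher and 0 lower, where 6.17% of all genes were higher.

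DESeq2 called 9 members higher, namely Chaf1a, Clspn, Fen1, Mcm10, Mcm2, Mcm7, Pold1, Rfc2 and Tk1, and 1.91% of all the genes to which it gave an adjusted p. limma-voom with quality weights, which gives less weight to libraries that depart from the fit, called 17 higher, and 4.88% of all genes tested. In a fit of the Mx1-Cre and wild type libraries alone edgeR called 4 higher, Mcm10, Mcm7, Rrm1 and Tk1, and 1.03% of all genes. Over all 8 libraries but 1, it called Mcm10, Mcm7 and Rrm1 without Vav-Cre 1 and likewise without Vav-Cre 2, where 0.889% and 0.921% of all genes were called higher. Without Mx1-Cre 2 it called Chaf1a, and 0.550% of all genes.

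**Figure D2:**
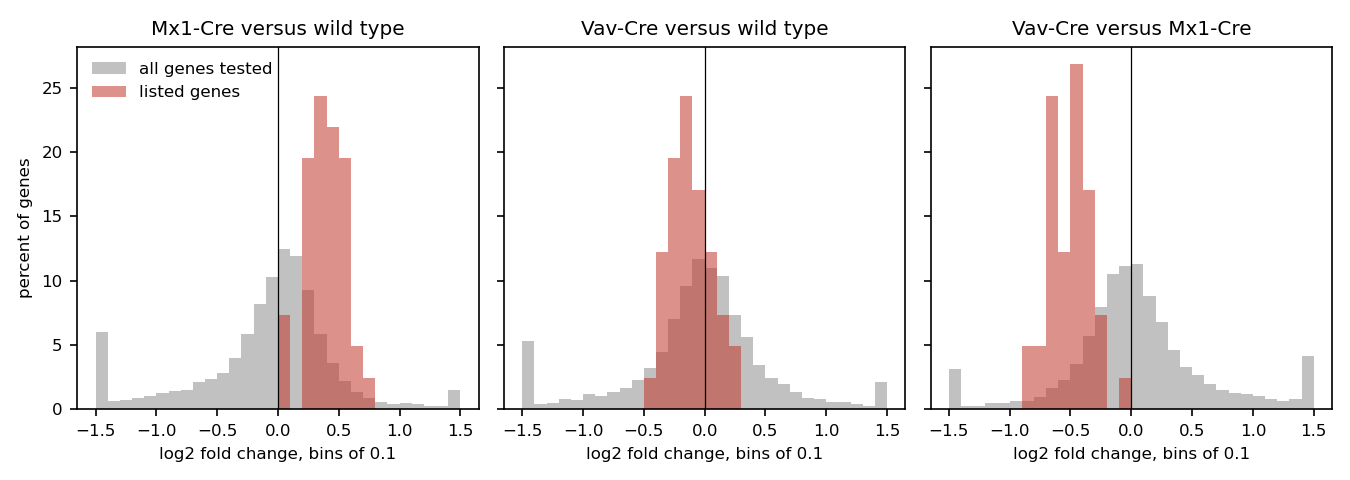
Share of genes (percent, vertical axis) by log2 fold change in bins of 0.1 for the 41 replication genes (red) and all 14086 genes tested (grey) in 3 comparisons, where the outermost bins also hold everything beyond them. Against wild type the 41 genes sit to the right of 0 in Mx1-Cre, with a median of 0.39, and spread over both sides in Vav-Cre libraries, with a median of -0.15.

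Since the members shared this pattern, their promoters were searched for letters that E2F factors are known to bind. RefSeq promoter windows, from 250 bases before to 50 after each start site (GRCm38.p6), were matched by symbol for 33 of the 41 genes, as 39 windows. The letters searched on both strands were TTCCCGC with its variants, which are TTCGCGC, then TTGCCGC and also TTGGCGC, and matches can overlap each other or a CCAAT box. A match was found in 26 of the 39 windows (66.7%), in 22 of the 33 genes. The same letters occurred in 15.9% of the windows of tested genes and in 9.57% of all windows. The median GC content was 62.3% in the members' windows and 60% in those of tested genes. Of 45 matches, 15 began more than 100 bases before the start site, 12 in the last 100 bases before it and 18 at or after it. A match is a description of the letters and does not show binding.

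Shown here are the 250 bases before the start site for the 5 members with the smallest p in Mx1-Cre against wild type among those with a single window and a match before the start, and for Pcna, the member with the largest p. Capitals mark the E2F letters, and each run is written 5′ to 3′ on the gene's own strand. In GRCm38.p6, which is not the build of the counts, the stretches lie at chr17:56040166-56040415 (plus strand) for Chaf1a, chr7:102441445-102441694 (plus) for Rrm1, chr8:75109259-75109508 (plus) for Mcm5, chr1:128359706-128359955 (minus) for Mcm6, chrX:93632156-93632405 (minus) for Pola1 and chr2:132253181-132253430 (minus) for Pcna.
Chaf1a: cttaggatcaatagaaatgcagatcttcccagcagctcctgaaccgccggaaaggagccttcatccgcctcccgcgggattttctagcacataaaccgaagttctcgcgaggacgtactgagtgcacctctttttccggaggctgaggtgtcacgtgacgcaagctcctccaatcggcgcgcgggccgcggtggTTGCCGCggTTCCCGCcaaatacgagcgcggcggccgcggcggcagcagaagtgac
Rrm1: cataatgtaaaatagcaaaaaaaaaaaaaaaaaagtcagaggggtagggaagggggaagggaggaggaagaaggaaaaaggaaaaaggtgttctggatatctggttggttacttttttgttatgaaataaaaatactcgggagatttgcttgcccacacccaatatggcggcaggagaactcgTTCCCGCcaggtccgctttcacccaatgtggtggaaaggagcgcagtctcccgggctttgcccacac
Mcm5: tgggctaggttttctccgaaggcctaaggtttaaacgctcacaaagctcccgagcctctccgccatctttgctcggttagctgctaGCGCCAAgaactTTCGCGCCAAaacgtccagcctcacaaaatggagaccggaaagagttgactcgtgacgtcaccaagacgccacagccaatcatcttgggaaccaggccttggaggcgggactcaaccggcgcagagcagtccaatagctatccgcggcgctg
Mcm6: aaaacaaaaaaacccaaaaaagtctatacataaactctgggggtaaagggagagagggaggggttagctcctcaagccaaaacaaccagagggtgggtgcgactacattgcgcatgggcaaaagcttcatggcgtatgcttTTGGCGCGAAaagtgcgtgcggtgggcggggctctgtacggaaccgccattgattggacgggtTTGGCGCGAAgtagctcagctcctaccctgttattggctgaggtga
Pola1: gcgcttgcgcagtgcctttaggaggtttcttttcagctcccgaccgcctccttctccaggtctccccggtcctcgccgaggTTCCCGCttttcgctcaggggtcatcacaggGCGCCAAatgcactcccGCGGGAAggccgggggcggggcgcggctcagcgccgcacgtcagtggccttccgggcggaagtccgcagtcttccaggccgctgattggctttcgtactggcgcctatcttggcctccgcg
Pcna: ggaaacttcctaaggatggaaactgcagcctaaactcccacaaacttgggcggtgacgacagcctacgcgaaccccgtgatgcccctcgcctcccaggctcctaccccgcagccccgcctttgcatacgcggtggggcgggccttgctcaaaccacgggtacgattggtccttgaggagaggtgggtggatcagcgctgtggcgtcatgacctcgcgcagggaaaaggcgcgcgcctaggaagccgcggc

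Chaf1a held 2 matches, which began 56 and 47 bases before the start site, and Rrm1 held 1, which began 67 bases before it. Mcm6 held 4 in this stretch, in 2 overlapping pairs that began 109 and 106, and 46 and 43, bases before the start. Mcm5 and Pola1 held 3 each, and Pcna held none in its whole window, which says only that these letters are not there. Apart from Pcna, the promoters shown were chosen to hold a match. Members with larger folds in Mx1-Cre libraries also lacked one, among them Mcm10 (0.66), Tk1 (0.62), Ung (0.54) and Mcm2 (0.47). Chaf1b (0.06) and Rfc3 (0.09) held 2 each in their windows. Whether matches go with the fold change was not tested.

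Licensing genes came first in the order of events and were 10 of the 41. In Mx1-Cre libraries their median fold change was 0.42. All Mx1-Cre libraries lay above all wild type libraries for 8 of the 10, against 10.9% of all genes tested. The helicase gene Mcm7 had the smallest p of all members (0.53 ± 0.13 SE, edgeR adjusted p = 0.0666, DESeq2 adjusted p = 0.00466). Its level was 213.5, 236 and 229.7 CPM in the wild type, 340.4, 308 and 333 in the Mx1-Cre and 274 and 210.5 in the Vav-Cre libraries. All 3 Mx1-Cre libraries exceeded the other 5. Mcm2, another of the 6 helicase subunits, lay at 278, 299 and 294 CPM in the wild type, 436, 344 and 427 in the Mx1-Cre and 302.5 and 231 in the Vav-Cre libraries (0.47 ± 0.14, edgeR adjusted p = 0.126). Mcm5 lay at 458, 458 and 420.2 CPM in the wild type, 602.5, 629 and 575 in the Mx1-Cre and 442.5 and 272 in the Vav-Cre libraries (0.43 ± 0.17, adjusted p = 0.220). For Mcm2 and Mcm5 the lowest Mx1-Cre library stood above all others, and the lowest library of all 8 was Vav-Cre 2.

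Mcm6 lay at 533, 643 and 551 CPM in the wild type, 818, 627 and 793 in the Mx1-Cre and 633 and 501 in the Vav-Cre libraries (0.37 ± 0.15, adjusted p = 0.242). Here Mx1-Cre 2 lay within the wild type range. Orc6, a subunit of the origin recognition complex, lay at 111.5, 121 and 117 CPM in the wild type, 152, 145 and 167 in the Mx1-Cre and 125 and 78.6 in the Vav-Cre libraries (0.41 ± 0.17, adjusted p = 0.244), with no overlap between Mx1-Cre and wild type. The remaining helicase genes were Mcm4 (0.38 ± 0.18) and Mcm3 (0.29 ± 0.16), both also without overlap. The loader gene Cdc6 (0.40 ± 0.20) and Gmnn (0.43 ± 0.22), which encodes geminin, the inhibitor of CDT1, were without overlap too, while for Cdt1 itself (0.45 ± 0.20) Mx1-Cre 2 overlapped wild type. The loaders and their inhibitor therefore had fold changes of like size, from 0.40 to 0.45.

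**Figure D3:**
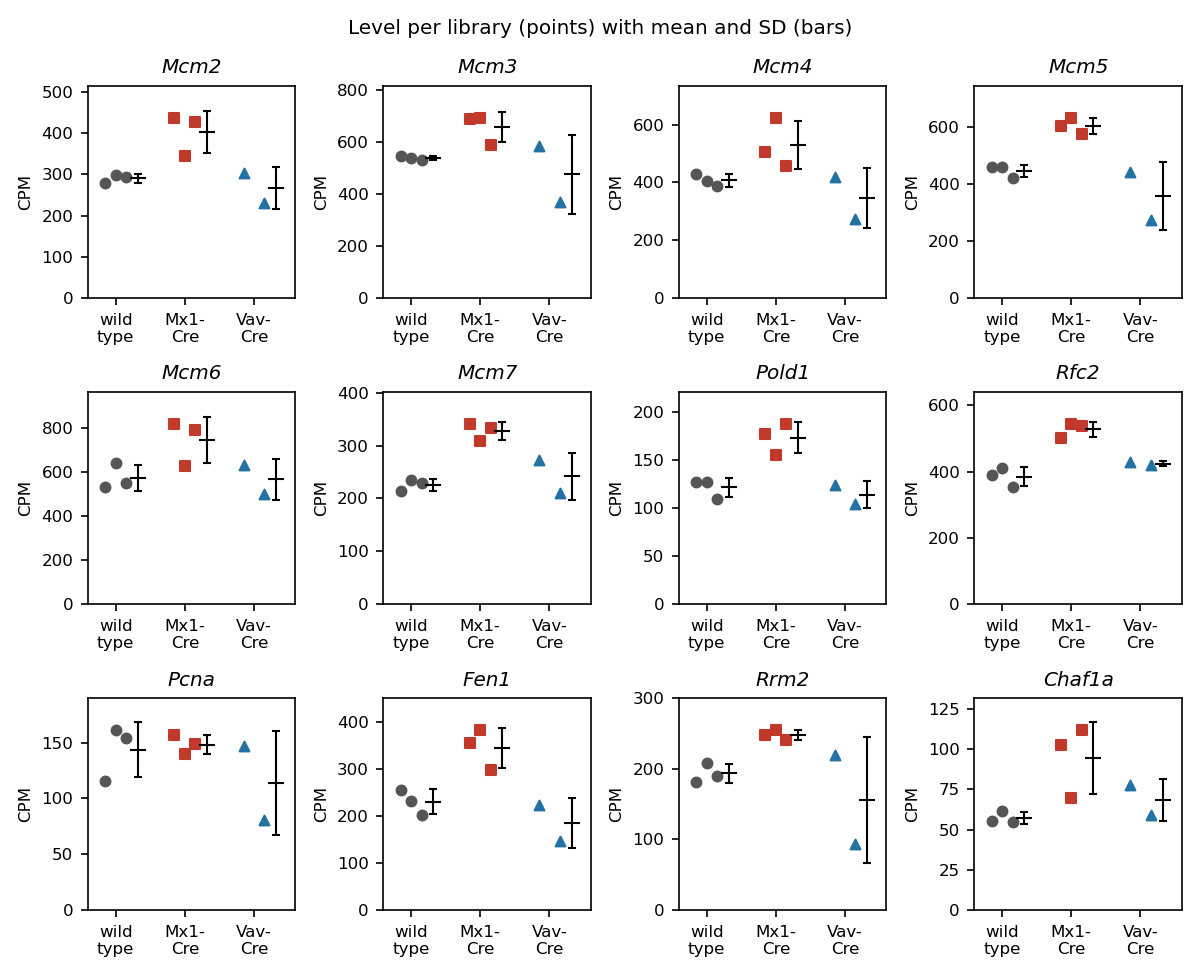
Level in CPM (vertical axis, from 0) of 12 replication genes, with 1 point per library in wild type (grey circles, n = 3), Mx1-Cre (red squares, n = 3) and Vav-Cre (blue triangles, n = 2) and bars for the mean and SD. Mcm7 lies at 308 to 340 CPM in Mx1-Cre, above all other libraries, while Pcna overlaps between the groups.

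Origin firing genes were more uneven. Mcm10, which helps to turn the loaded helicase into an active fork, had the fold change next below that of Chaf1a, the largest of the 41 (0.66 ± 0.21, edgeR adjusted p = 0.142, DESeq2 adjusted p = 0.0462). It lay at 87.4, 74.3 and 73.8 CPM in the wild type, 131, 133 and 109 in the Mx1-Cre and 90.1 and 47.2 in the Vav-Cre libraries. Vav-Cre 2 was the lowest and the Mx1-Cre libraries were the 3 highest. The 4 GINS genes encode the subunits of a complex that binds the helicase. Gins1 lay at 29.6, 40.4 and 35.7 CPM in the wild type, 47.5, 43.6 and 58.6 in the Mx1-Cre and 36.6 and 27.1 in the Vav-Cre libraries (0.50 ± 0.19, adjusted p = 0.216). Gins4 lay at 29.7, 41.5 and 40.5 CPM in the wild type, 42.8, 41.9 and 56.4 in the Mx1-Cre and 35.9 and 25.7 in the Vav-Cre libraries (0.34 ± 0.20, adjusted p = 0.455). Both had no overlap between Mx1-Cre and wild type, Gins4 by a narrow margin.

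Gins3 lay at 27.6, 28.9 and 30.9 CPM in the wild type, 29.6, 32.5 and 40.2 in the Mx1-Cre and 28.4 and 22.2 in the Vav-Cre libraries (0.22 ± 0.18, adjusted p = 0.590), with overlap. Gins2 had 0.26 ± 0.24 and overlapped as well. Cdc7, which encodes the kinase that phosphorylates the loaded helicase, lay at 143.5, 114 and 128 CPM in the wild type, 152.5, 183 and 129.6 in the Mx1-Cre and 128 and 62.9 in the Vav-Cre libraries (0.27 ± 0.24, adjusted p = 0.634). Its lowest library by far was Vav-Cre 2. Dbf4, the kinase's activating subunit, did not follow it: its level was 37.3, 44.4 and 55.9 CPM in the wild type, 62.6, 34.0 and 77.9 in the Mx1-Cre and 49.0 and 35.7 in the Vav-Cre libraries (0.34 ± 0.28, adjusted p = 0.606), and Mx1-Cre 2 held the lowest value of all 8 libraries and Mx1-Cre 3 the highest.

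Of the polymerase and primase genes, Pold1, the catalytic subunit of the lagging strand polymerase delta, lay at 127, 127 and 109 CPM in the wild type, 177, 155.5 and 187 in the Mx1-Cre and 124 and 104 in the Vav-Cre libraries (0.51 ± 0.13, edgeR adjusted p = 0.076, DESeq2 adjusted p = 0.012). Pole, its counterpart on the leading strand, lay at 171, 146 and 151.5 CPM in the wild type, 214, 195 and 187 in the Mx1-Cre and 172 and 139.9 in the Vav-Cre libraries (0.35 ± 0.13, adjusted p = 0.212). Pola1, which extends the primers, lay at 99.7, 82.3 and 90.9 CPM in the wild type, 118, 128 and 109 in the Mx1-Cre and 109.8 and 72.3 in the Vav-Cre libraries (0.38 ± 0.17, adjusted p = 0.286). In these 3 genes every Mx1-Cre library exceeded every wild type library. The primase gene Prim1 lay at 165, 189.7 and 163 CPM in the wild type, 183.5, 209 and 223 in the Mx1-Cre and 189 and 102 in the Vav-Cre libraries (0.25 ± 0.20, adjusted p = 0.600), where Mx1-Cre 1 lay among the wild type libraries.

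The clamp and its loader were split. Pcna, the sliding clamp, lay at 115, 161 and 154 CPM in the wild type, 156, 139.8 and 148 in the Mx1-Cre and 147 and 80.5 in the Vav-Cre libraries (0.05 ± 0.21, adjusted p = 0.941), with full overlap of Mx1-Cre and wild type. Rfc2, a loader subunit, had 0.46 ± 0.11 (edgeR adjusted p = 0.0693, DESeq2 adjusted p = 0.00501), at 390.4, 411 and 354 CPM in the wild type, 502, 542.5 and 538 in the Mx1-Cre and 429 and 418 in the Vav-Cre libraries. It was the only member above all wild type libraries in all 5 libraries labelled knockout.

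Of the other loader subunits, Rfc5 had a fold change close to that of Rfc2, and those of Rfc4 and Rfc3 were smaller, with no test between genes. Rfc5 lay at 61.4, 74.3 and 77.1 CPM in the wild type, 96.3, 72.9 and 117 in the Mx1-Cre and 77.4 and 70.0 in the Vav-Cre libraries (0.43 ± 0.18, adjusted p = 0.262), and Mx1-Cre 2 overlapped wild type. Rfc4 lay at 111, 130.3 and 124 CPM in the wild type, 134, 153 and 147 in the Mx1-Cre and 135 and 81.0 in the Vav-Cre libraries (0.25 ± 0.18, adjusted p = 0.543), without overlap. Rfc3 lay at 90.0, 102 and 104 CPM in the wild type, 103, 105 and 106 in the Mx1-Cre and 98.2 and 72.7 in the Vav-Cre libraries (0.09 ± 0.14, adjusted p = 0.809). It showed the smallest spread among Mx1-Cre libraries of all members, with a coefficient of variation of 1.41%, and still overlapped wild type.

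Among fork protection genes, Clspn, which encodes the checkpoint mediator claspin, lay at 48.5, 58.0 and 56.3 CPM in the wild type, 85.5, 63.6 and 90.9 in the Mx1-Cre and 75.7 and 55.8 in the Vav-Cre libraries (0.56 ± 0.18, edgeR adjusted p = 0.140, DESeq2 adjusted p = 0.0459). Rpa2, a subunit of the protein that coats single-stranded DNA, lay at 189.5, 220.1 and 205 CPM in the wild type, 258.5, 268 and 251 in the Mx1-Cre and 241 and 147 in the Vav-Cre libraries (0.34 ± 0.17, adjusted p = 0.359). Tipin, part of the fork protection complex, lay at 171, 214 and 201 CPM in the wild type, 216, 226 and 237 in the Mx1-Cre and 239 and 141.5 in the Vav-Cre libraries (0.21 ± 0.18, adjusted p = 0.621). In all 3 the Mx1-Cre libraries stood above wild type, for Tipin by a small margin and with Vav-Cre 1 highest of all.

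Both genes of Okazaki fragment joining were higher in every Mx1-Cre library. Fen1, the flap endonuclease, lay at 256, 233 and 202 CPM in the wild type, 355, 382 and 298 in the Mx1-Cre and 223 and 147 in the Vav-Cre libraries (0.58 ± 0.18, edgeR adjusted p = 0.118, DESeq2 adjusted p = 0.0343). Lig1, the ligase that seals the fragments, lay at 295, 278 and 299 CPM in the wild type, 378, 356 and 377 in the Mx1-Cre and 304 and 205 in the Vav-Cre libraries (0.35 ± 0.15, adjusted p = 0.275). Vav-Cre 2 was lowest for both.

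In nucleotide supply, Tk1, the thymidine salvage kinase, lay at 80.7, 93.0 and 87.7 CPM in the wild type, 124, 116 and 160.3 in the Mx1-Cre and 123 and 70.6 in the Vav-Cre libraries (0.62 ± 0.20, edgeR adjusted p = 0.152, DESeq2 adjusted p = 0.0493). Rrm1, the large subunit of ribonucleotide reductase, lay at 596.5, 544 and 505 CPM in the wild type, 816, 847 and 766 in the Mx1-Cre and 662 and 366.5 in the Vav-Cre libraries (0.56 ± 0.19, adjusted p = 0.165). Rrm2, its small subunit, lay at 181.5, 209 and 189.9 CPM in the wild type, 248, 254 and 240.5 in the Mx1-Cre and 219 and 92.9 in the Vav-Cre libraries (0.36 ± 0.25, adjusted p = 0.524). For these 3 genes Mx1-Cre did not overlap wild type, and Rrm2 had the lowest ratio of Vav-Cre 2 to Vav-Cre 1 of all members (0.425).

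Tyms, thymidylate synthase, lay at 200.4, 224 and 169 CPM in the wild type, 237, 280.4 and 278 in the Mx1-Cre and 213 and 120.0 in the Vav-Cre libraries (0.42 ± 0.20, adjusted p = 0.330). Ung, which encodes the glycosylase that removes uracil from DNA, lay at 29.2, 25.8 and 23.3 CPM in the wild type, 41.3, 33.01 and 39.1 in the Mx1-Cre and 31.8 and 24.7 in the Vav-Cre libraries (0.54 ± 0.18, adjusted p = 0.152). Both were without overlap. Dut, the dUTPase that keeps uracil out, had 0.30 ± 0.25 and overlapped, with the widest spread of all members in wild type, a coefficient of variation of 22.8%.

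Chaf1a and Chaf1b encode the large and middle subunits of CAF-1, which deposits histones behind the fork, and their fold changes lay near opposite ends of the members' range. Chaf1a had the largest fold change of the 41 (0.72 ± 0.19, edgeR adjusted p = 0.0799, DESeq2 adjusted p = 0.00892), at 55.5, 61.7 and 54.6 CPM in the wild type, 102, 69.3 and 112 in the Mx1-Cre and 77.4 and 59.0 in the Vav-Cre libraries. Chaf1b had 0.06 ± 0.12 (adjusted p = 0.861), at 207, 211.5 and 190.1 CPM in the wild type, 225.5, 202 and 207 in the Mx1-Cre and 226 and 188.5 in the Vav-Cre libraries. Its 8 libraries lay within a narrow band, and it also had the smallest difference between the knockout lines.

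Uhrf1, which brings maintenance methylation to newly copied DNA, lay at 244, 244 and 223 CPM in the wild type, 385, 306 and 318 in the Mx1-Cre and 251 and 162 in the Vav-Cre libraries (0.50 ± 0.17, adjusted p = 0.162). Slbp, the binding protein of histone mRNA stem-loops, lay at 123, 145 and 139 CPM in the wild type, 173, 164 and 197 in the Mx1-Cre and 156 and 94.8 in the Vav-Cre libraries (0.39 ± 0.18, adjusted p = 0.313). Neither overlapped between Mx1-Cre and wild type, and in both Vav-Cre 2 was lowest.

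**Figure D4:**
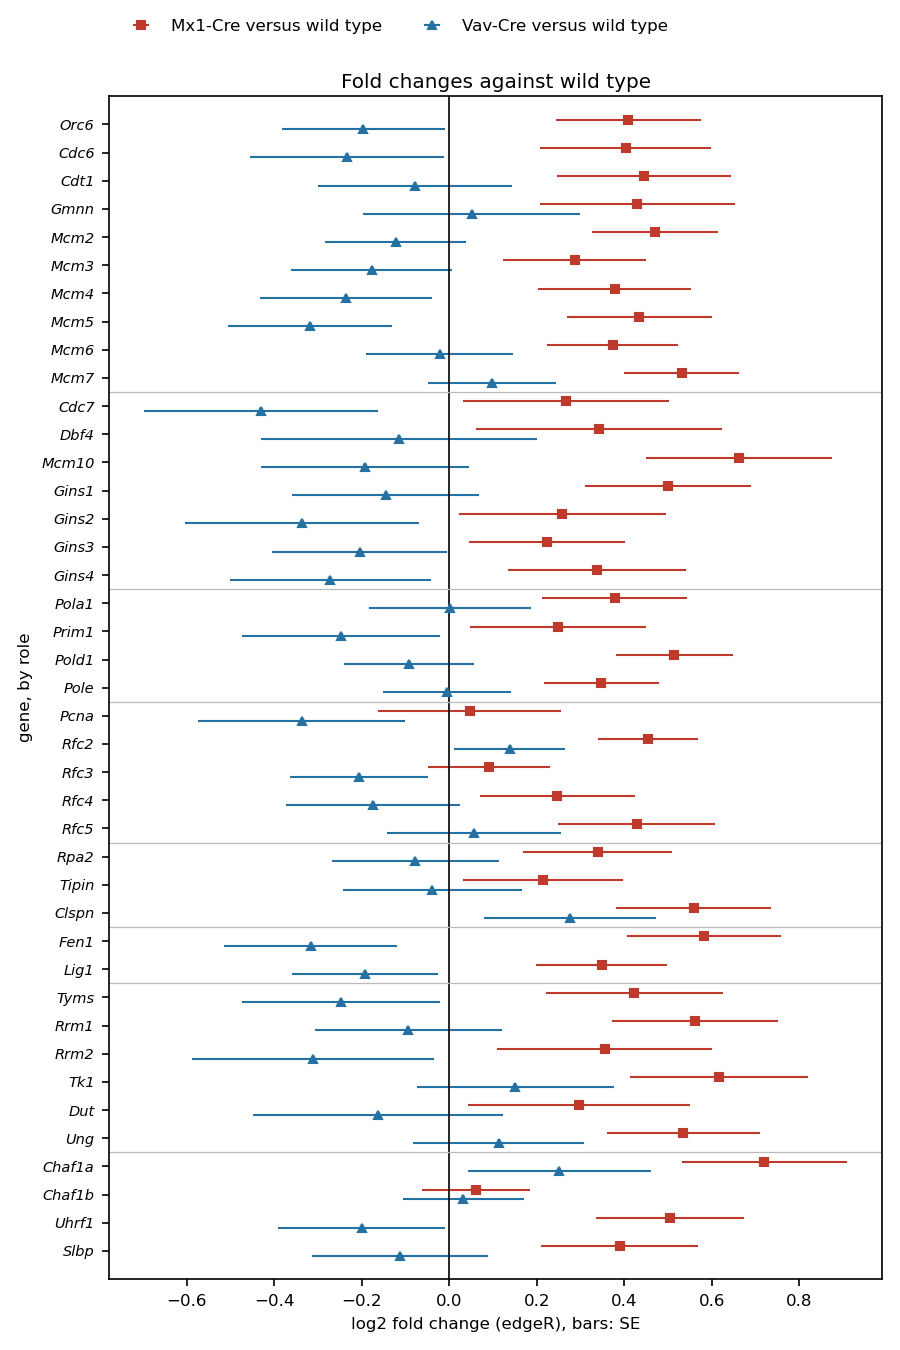
Log2 fold change against wild type from edgeR (horizontal axis, bars: SE) of the 41 genes by role, for Mx1-Cre (red squares) and Vav-Cre (blue triangles) libraries, which share the same 3 wild type libraries. Every red square is right of 0, from 0.05 for Pcna to 0.72 for Chaf1a, and 31 of the 41 blue triangles are left of it.

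The second comparison asks the same of the constitutive deletion. Against wild type 10 members had a positive and 31 a negative fold in Vav-Cre libraries, where 49.0% of all genes tested had a positive one. The members' median was -0.15, against -0.01 over all genes, and the range was -0.43 (Cdc7) to 0.28 (Clspn). None passed edgeR in either direction (adjusted p 0.507 to 0.998), where 0.192% of all genes were called higher and 0.319% lower, and 0 had an unadjusted p under 0.05. DESeq2 called 0 of the 41, and 615 of the 14086 genes tested in either direction. In 0 of 41 genes both Vav-Cre libraries lay below all wild type libraries, against 17.1% of all genes. Among members the median coefficient of variation was 29.1% in Vav-Cre, 9.82% in Mx1-Cre and 8.50% in wild type. Over the 6658 genes in the members' range of mean levels it was 11.5, 13.4 and 9.91%.

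The 2 Vav-Cre libraries differed in every member. Vav-Cre 2 was below Vav-Cre 1 in 41 of 41 genes, where 49.4% of all genes tested were, and the median ratio of the 2 was 0.659. The ratio ran from 0.425 for Rrm2 to 0.975 for Rfc2, and over all genes tested its median was 0.995. Vav-Cre 2 was the lowest of the 8 libraries for 33 members, against 18.5% of all genes, and below all 3 wild type libraries for 34, against 35.3%. Vav-Cre 1 was above all 3 wild type libraries for 24 members, against 29.8% of all genes, and below all 3 for 0. Without Vav-Cre 2 the members' median fold against wild type was 0.13, with 34 positive folds, and without Vav-Cre 1 it was -0.47, with 3 positive folds and Rrm2 called lower, as were 0.636% of all genes. In those fits the lone Vav-Cre library is assumed to vary like the other groups.

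The lines were also compared with each other. All 41 members were lower in Vav-Cre than in Mx1-Cre libraries under TMM scaling (median -0.47, range -0.90 to -0.03), while Chaf1b turned positive with library totals alone. Among all 14086 genes tested 6945 were lower, and the median was 0.005. In 27 of 41 genes both Vav-Cre libraries lay below all Mx1-Cre libraries, where 12.0% of all genes did. None passed edgeR (adjusted p 0.132 to 0.956), which called 0.0568% of all genes lower, and 23 had an unadjusted p under 0.05, where 5.96% of all genes were lower. DESeq2 called 6 lower, Fen1, Mcm10, Mcm2, Mcm5, Pold1 and Uhrf1, and 1.42% of all genes. The largest differences were those of Fen1 (-0.90 ± 0.20), Mcm10 (-0.86 ± 0.24) and Mcm5 (-0.75 ± 0.19). Without Vav-Cre 1 edgeR called 17 members and 1.43% of all genes lower, and without Vav-Cre 2 it called 0, with a median of -0.26, 5 unadjusted p under 0.05 and positive folds for Chaf1b and Tipin.

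With the lines averaged against wild type, 37 of 41 folds were positive, where 50% of all genes were. The members' median was 0.13, and none passed edgeR or DESeq2, where edgeR called 0.547% of all genes higher. DESeq2 called 942 of the 14086 genes tested in either direction. Only Chaf1a (0.49 ± 0.17), Rfc2 (0.30 ± 0.10), Mcm7 (0.31 ± 0.12) and Clspn (0.42 ± 0.16) had an unadjusted p under 0.05, where 6.11% of all genes were higher. Of these 4, only Mcm7 was lower in Vav-Cre 2 than in every wild type library, at 210.5 against 213.5 CPM in wild type 1. Without Vav-Cre 1 the average turned to a median of -0.03 with 14 positive folds, and without Vav-Cre 2 to 0.26 with 41.

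Genes of the same processes outside the list were examined beside it. Of 36 other replication machinery genes, 34 had a positive fold in Mx1-Cre libraries (median 0.28). None passed edgeR, 2 passed DESeq2, and 11 had an unadjusted p under 0.05, all higher. Of the 14086 genes tested, DESeq2 called 1038 in either direction, and 6.17% were higher at an unadjusted p under 0.05. Topbp1, which helps to assemble the active helicase, lay at 211, 243 and 255.5 CPM in the wild type, 366, 303 and 355 in the Mx1-Cre and 295.5 and 243 in the Vav-Cre libraries (0.53 ± 0.14, adjusted p = 0.0784). Timeless, the partner of Tipin, lay at 103, 107 and 87.0 CPM in the wild type, 139.5, 143 and 130.3 in the Mx1-Cre and 90.7 and 99.9 in the Vav-Cre libraries (0.48 ± 0.13, adjusted p = 0.0833). In contrast to Tipin, Timeless was lower in Vav-Cre 1 than in Vav-Cre 2. Atad5, which unloads PCNA from DNA, had 0.43 ± 0.14. In Vav-Cre libraries 29 of these 36 genes had a negative fold (median -0.08), as did 7181 of the 14086 genes tested. Of the 36, 0 passed edgeR or DESeq2, where DESeq2 called 615 of the 14086 genes tested in either direction. At an unadjusted p under 0.05, 1 was lower, as were 1076 of the 14086.

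Of 20 nucleotide metabolism genes 13 had a positive fold in Mx1-Cre libraries (median 0.08). None passed edgeR and 1 passed DESeq2, with 2 higher and 3 lower at an unadjusted p under 0.05, against 6.17% and 10.5% of all genes. Dtymk, the thymidylate kinase next to Tk1 and Tyms in the pathway, had 0.55 ± 0.14 (adjusted p = 0.0748). Rrm2b, the ribonucleotide reductase subunit induced by p53, had -0.53 ± 0.17 and Dctd, a deaminase that feeds thymidylate synthesis, -0.48 ± 0.17. In Vav-Cre libraries 17 of the 20 were negative (median -0.22), as were 7181 of the 14086 genes tested. At an unadjusted p under 0.05, 4 were lower, as were 1076 of the 14086. Mthfd1, an enzyme of the folate cycle that supplies purine and thymidylate synthesis, fell (-1.15 ± 0.21, edgeR adjusted p = 0.0481). Its level was 239, 196 and 176 CPM in the wild type, 166, 181 and 187 in the Mx1-Cre and 112.5 and 70.6 in the Vav-Cre libraries. Both Vav-Cre libraries were below all others. The call was lost in 8 of 15 alternatives (adjusted p up to 0.178), among them those without wild type 1, 2 or 3, Mx1-Cre 1 or Vav-Cre 2.

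Of 10 further measured genes of replication-coupled chromatin, 9 had a positive fold in Mx1-Cre libraries (median 0.26). None passed edgeR or DESeq2, and 2 were higher at an unadjusted p under 0.05, against 6.17% of all genes. Hells, a chromatin remodeler, had 0.43 ± 0.15, Dnmt1, the maintenance methyltransferase recruited by UHRF1, 0.48 ± 0.18, and Ssrp1, a subunit of the histone chaperone FACT, 0.27 ± 0.15. In Vav-Cre libraries 9 of the 10 were negative (median -0.16), as were 7181 of the 14086 genes tested, and none of the 10 passed edgeR. DESeq2 called 615 of the 14086 in either direction. Cdca7, which acts with HELLS and is singled out here for its value, passed DESeq2 and had an unadjusted edgeR p under 0.05 (-0.53 ± 0.14, edgeR adjusted p = 0.129). It lay at 445, 455 and 421 CPM in the wild type, 436, 438 and 435 in the Mx1-Cre and 339.6 and 268 in the Vav-Cre libraries, both of which were below all others.

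The 24 mitosis genes set beside the list ranked the 5 libraries labelled knockout in the same order as the listed genes did. Their median log2 ratio to the wild type mean was 0.54, 0.35 and 0.66 in Mx1-Cre, 0.33 in Vav-Cre 1 and -0.74 in Vav-Cre 2. Vav-Cre 2 was the lowest of 8 libraries for 23 of 24, against 18.5% of all genes. All 24 folds were positive in Mx1-Cre libraries (median 0.54), as were 51.3% over all genes. At an unadjusted p under 0.05, 10 were higher, against 6.17% of all genes. edgeR called 0, and DESeq2 called 2, where it called 1038 of the 14086 genes tested in either direction. The proliferation marker Mki67 lay at 599, 576 and 646 CPM in the wild type, 1058, 796 and 1100 in the Mx1-Cre and 962 and 465 in the Vav-Cre libraries. Top2a, the topoisomerase that separates sister chromatids, lay at 674, 592 and 602 CPM in the wild type, 1108, 962 and 924 in the Mx1-Cre and 861 and 421 in the Vav-Cre libraries. Tacc3, a spindle protein, lay at 153, 149 and 133 CPM in the wild type, 209, 202.5 and 225 in the Mx1-Cre and 173 and 101.4 in the Vav-Cre libraries. For all 3, Vav-Cre 1 lay above and Vav-Cre 2 below every wild type library.

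**Figure D5:**
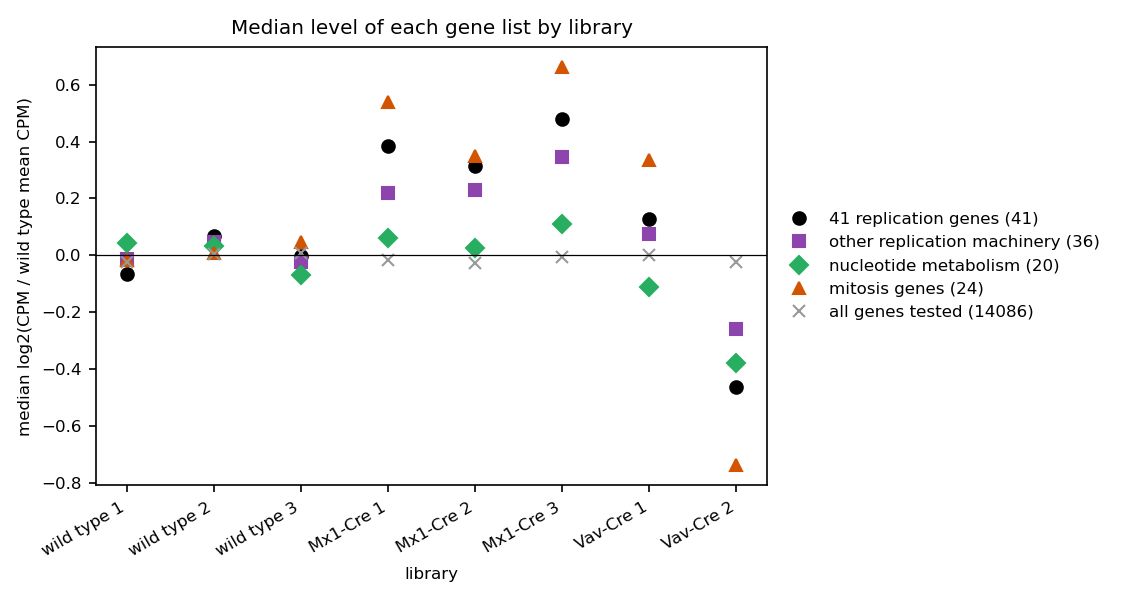
Median log2 ratio of CPM to the wild type mean (vertical axis) in each of the 8 libraries for the 41 replication genes (black), 36 other replication genes (purple), 20 nucleotide metabolism genes (green), 24 mitosis genes (orange) and all 14086 genes tested (grey). The replication and mitosis medians are highest in the Mx1-Cre libraries and lowest in Vav-Cre 2, at -0.46 and -0.74, while that of all genes stays between -0.03 and 0.01.

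Markers of other cells were read in the same libraries. The summed level of 6 mast cell and basophil genes was between 10.3 and 14.9 CPM in the wild type and between 24.8 and 40.9 in the Mx1-Cre libraries, 16.5 in Vav-Cre 1 and 235 in Vav-Cre 2. Of the level in Vav-Cre 2, Fcer1a gave 208.5 CPM, against 2.00 in Vav-Cre 1, and Cpa3 gave 25.2, against 14.3 in Vav-Cre 1 and 8.88 to 10.1 in the wild type. Ms4a2 lay at 0.898 CPM in Vav-Cre 2, and Mcpt8, Prss34 and Cma1 at 0 to 0.0620. The summed level of 6 myeloid progenitor genes was between 391.8 and 630.4 CPM in the wild type. It was between 151 and 209 in the Mx1-Cre libraries, 145 in Vav-Cre 1 and 351 in Vav-Cre 2. Of these genes, Mpo fell in both lines. Prtn3 lay at 219.7 CPM in Vav-Cre 2, above its wild type range of 68.81 to 89.88, and below that range in Vav-Cre 1. In the same order of groups, the summed level of 8 neutrophil and monocyte genes was 309.5 to 1123, 99.4 to 558, and 6.90 and 273. For 5 megakaryocyte genes it was 672 to 861, 494 to 738, and 311 and 585. That of 9 erythroid genes was 5066 to 5961, 6290 to 7702, and 6408 and 4585, which is the order of the replication genes by group and came almost wholly from Car2, while Hba-a1 and Hbb-b1 had 0 counts in the table. Among genes of the stem cell gate and identity, Fgd5 and Procr were among those that fell in Mx1-Cre, and Fgd5 fell in Vav-Cre libraries. The part of any of these in the levels of the replication genes was not tested.

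Per kilobase of exon, the wild type mean of the members spanned from 10.2 CPM for Ung to 178 for Mcm3. Rrm1 (137), Mcm6 (132), Mcm5 (129) and Mcm4 (113) followed Mcm3, and Chaf1a (10.4), Gins3 (10.8) and Clspn (10.8) stood just above Ung. The genes with the largest fold changes in Mx1-Cre libraries, Chaf1a, Mcm10 (15.8) and Tk1 (60.5), were thus not those with the highest levels. Exons of 12 members overlap exons of a gene on the other strand in GENCODE M21, Orc6, Mcm7, Gins2, Pole, Rfc2, Rfc4, Rfc5, Fen1, Lig1, Tk1, Chaf1a and Slbp. The libraries carry no strand information, so reads from such exons cannot be told apart, and Pcna and Tyms have pseudogenes that could share reads with them. The other 27 members all had positive folds in Mx1-Cre libraries (median 0.38), 12 with an unadjusted p under 0.05, where 6.17% of all genes were higher.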

How the data were processed

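RNA-seq was done on 8 libraries of sorted mouse stem cells, made with a SMARTer kit and an unstranded NEBNext preparation, per the labels' protocols. The deposited table holds raw counts per gene symbol from the authors, and the tools and build named, with no role or version, are TopHat, SAMtools, HTSeq, edgeR and mm9, per the submitters' processing notes. The annotation and strand setting were not given in the sources used here. The authors' second table, of CPM values, was not used. Groups were taken from the titles. Counts were filtered with filterByExpr (minimum count 10, minimum total 15) and scaled with TMM. They were fitted with edgeR 4.0.16 (R 4.3.3) by the quasi-likelihood test in a single model of the 8 libraries whose sole term was group. The script was first tested on simulated data. For Mx1-Cre against wild type it recovered 61% of 100 simulated 2-fold and 83% of 100 simulated 4-fold changes. There were 12 false calls among the 13821 genes simulated. Changes as small as those of the members were not simulated. P-values were adjusted by Benjamini-Hochberg across the 14086 genes tested, with calls below 0.05. The SE was derived from the F statistic (size of the log2 fold change over root F). Levels are CPM of the library total times the TMM factor, with fitted log2 fold changes.

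All 41 members are named, by role. Values in every library are given for up to 5 members per role with the smallest unadjusted p in Mx1-Cre against wild type, and for Cdc7, added after its values were seen because it is the kinase partner of Dbf4. In companion lists genes that passed, or up to 3 with the smallest p, are named. The members, lists and rule were chosen with earlier results of these data known. Alternatives were DESeq2 1.42.0, limma-voom (limma 3.58.1) with quality weights, other scalings, no filter, fewer groups, a replicate block and each library left out. Libraries of a group correlated at r = 0.954 to 0.978 across genes, and their counts differed beyond sampling noise (chi-square over degrees of freedom 27.5 to 127), so no library was taken for a repeat deposit of another. This does not show whether they are biological replicates. Exon lengths came from GENCODE M21 (GRCm38) and promoters from RefSeq (GRCm38.p6), a build other than that of the counts, used only for lengths, overlaps of genes and sequence. Results for some marker genes are not reported here.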

Additional observations from a re-analysis of the deposited data

How the results depend on the processing

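In Mx1-Cre against wild type, 0 members were called by edgeR with DESeq2 size factors, library totals, no filter or the replicate block, 9 by DESeq2, 17 by limma-voom and 4 with only the groups compared, and 0 to 3 with a library left out. In Vav-Cre against wild type the number lower was 0 to 1 and the median -0.47 to 0.13 with a library left out. With the lines averaged, the number higher was 0 to 1 with a library left out. In Vav-Cre against Mx1-Cre DESeq2 called 6 lower, and with a library left out the number was 0 to 17 and the median -0.84 to -0.26. The median in Mx1-Cre stayed between 0.31 and 0.45 in all settings run. Signs turned for Pcna in Mx1-Cre with library totals (-0.0327) and without wild type 1 (-0.0883, range with a library left out up to 0.136), for Dut without Mx1-Cre 3 (-0.0243, up to 0.512) and for Chaf1b with library totals (-0.0175). In Vav-Cre against Mx1-Cre they turned for Tipin without Vav-Cre 2 (0.0756, down to -0.680) and for Chaf1b with library totals (0.0261), without Mx1-Cre 1 (0.02) and without Vav-Cre 2 (0.10), with a low of -0.169 without Vav-Cre 1. The cause was not tested. Over all genes edgeR called 351 in Mx1-Cre against wild type, DESeq2 1041 and limma-voom 1815, while the fit of only those groups called 575 and the replicate block 235. Titles number the replicates but pair nothing: same-numbered libraries deviated from their group means with r = -0.07 to 0.13. With the replicate block the members' median was 0.39 in Mx1-Cre and -0.11 in Vav-Cre, and 0 were called in each. Single-gene folds in Vav-Cre and in the average were not followed gene by gene, except for Mthfd1, which was added after its value was seen: its fold was -1.53 to -0.855 with a library left out, and it was no longer called with DESeq2 size factors (adjusted p = 0.051), only the groups compared (0.0620) or the replicate block (0.0869). Whether depth limits any call was not tested.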

Other observations

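Promoter letters were counted in the listed genes and in the lists set beside them. The CCAAT box, CCAAT on either strand, occurred in 21 of the 39 windows of the listed genes (53.8%), in 18 of 21 windows of mitosis genes (85.7%), in 7 of 12 of other replication-coupled chromatin genes (58.3%) and in 37.6% of the windows of tested genes. The CHR letters of late cell cycle genes, TTTGAA on either strand, occurred, in the same order, in 6 of 39 (15.4%), 15 of 21 (71.4%), 5 of 12 (41.7%) and 12.3%. The E2F letters occurred in 66.7% of the listed genes' windows, in 47.2% of those of other replication machinery, in 41.7% of those of other replication-coupled chromatin genes, in 36.4% of those of nucleotide metabolism and in 23.8% of those of mitosis genes. These are counts of letters in windows of 300 bases, with no test.

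Within groups, members did not vary as a block everywhere. Between Mx1-Cre 2 and Mx1-Cre 3, 26 members were lower and 15 higher in Mx1-Cre 2, with ratios from 0.437 for Dbf4 to 1.41 for Cdc7, which encode partners in the same kinase. Among wild type libraries, wild type 1 was below wild type 2 in 28 of 41 members, with a lowest ratio of 0.632 for Dut. Only the Vav-Cre pair, of the 7 pairs of libraries within a group, had all 41 members on 1 side.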
